A study of Mus musculus with 3 samples.

Results

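Conjugating enzymes are the phase of drug and toxin metabolism that attaches a water-soluble group to a reactive or fat-soluble molecule. Glutathione S-transferases (GST) and the membrane-bound microsomal forms (MGST) join glutathione to electrophiles. UDP-glucuronosyltransferases (UGT) add glucuronic acid, sulfotransferases (SULT) add sulfate, and arylamine N-acetyltransferases (NAT) add an acetyl group. The liver is the organ best known for them, and several GST and MGST proteins also protect blood cells from oxidants or make leukotrienes. The members were every entry whose symbol starts with Gsta, Gstk, Gstm, Gsto, Gstp, Gstt, Gstz, Mgst, Ugt or Sult and a class letter or number, together with Nat1 and Nat2. The symbol rule gave 66 of 23282 entries, namely 21 GST, 3 MGST, 21 UGT, 19 SULT and 2 NAT entries.

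The samples were 3 libraries of bone marrow cells from male wild type C57BL/6 mice, 6 weeks old, which received sterile water by oral gavage for 28 days and were harvested on day 29 after lysis of red cells. Sterile water is the vehicle of a study of Asari Radix et Rhizoma, a herbal medicine made from wild ginger root. No herb-treated sample was analysed, and nothing below compares treatments. Whether each library stands for its own mouse is not stated in the labels, so p-values measure only the spread between these samples, which may be technical.

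The libraries held between 8104828 and 9168435 gene-assigned reads, and levels are given as reads per 1000000 of these (CPM). The kit primes at the poly(A) tail and yields about 1 read per transcript, so levels of different genes were compared without dividing by length. A gene with 0 reads in all libraries may have a level of up to 0.114 CPM, a limit that covers counting error only. The marrow identity of the samples showed in their markers. The summed level was 88950, 69166 and 91423 CPM for 9 neutrophil markers and 56848, 85197 and 86103 CPM for 7 erythroid markers in replicates 1, 2 and 3. Of 9 hepatocyte markers, 8 had 0 reads in every library, among them Alb, Apoa1 and Ttr, and the exception, Cyp2e1, brought the list to 8 reads in all. Of 4 intestinal markers, Fabp2 and Cdx2 had 0 reads, Lgals4 had 1, and Vil1 had reads in every library, 16 in all. In bulk samples, fewer cells of a type and less RNA per cell cannot be told apart.

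Glutathione-transferring enzymes made up most of the conjugating enzyme RNA of the marrow, and sulfotransferases were nearly absent. All members together reached 317, 262 and 283 CPM in replicates 1, 2 and 3. GST entries held 159, 131 and 155 CPM, which is 51.7% of the members' reads. The 3 MGST entries held 110, 88.6 and 88.6 CPM, or 33.4% of these reads. UGT entries held 45.6, 39.7 and 36.2 CPM, or 14.1%. SULT entries held 0.982, 0.740 and 2.08 CPM and NAT entries 0.763, 1.85 and 1.42 CPM. The ranges of the GST, MGST and UGT sums over the libraries did not overlap, and each lay above the SULT and NAT sums in 3 of 3 libraries, whereas SULT and NAT overlapped.

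A small number of genes carried these sums. The 4 highest members, Mgst2, Gstm1, Mgst1 and Ugt1a6b, held 60.8% of all member reads, and the 10 highest held 90.3%. A mean of at least 1 CPM was reached by 20 of the 66 members (30.3%), against 51.5% of all entries. By family these were 14 of 21 GST, 3 of 3 MGST, 2 of 21 UGT, 0 of 19 SULT and 1 of 2 NAT entries. The entries with 0 reads in every library were 31 of 66 members (47.0%), against 31.1% of all entries. The members with reads in at least 1 library were 35 of 66, against 68.9% of all entries. Of these, 15 had between 1 and 29 reads in all and were not tested. Entries that share their transcript ends, such as those of the Ugt1 locus, are counted singly here. For them, 0 reads need not mean that the gene was silent.

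**Figure D1:**
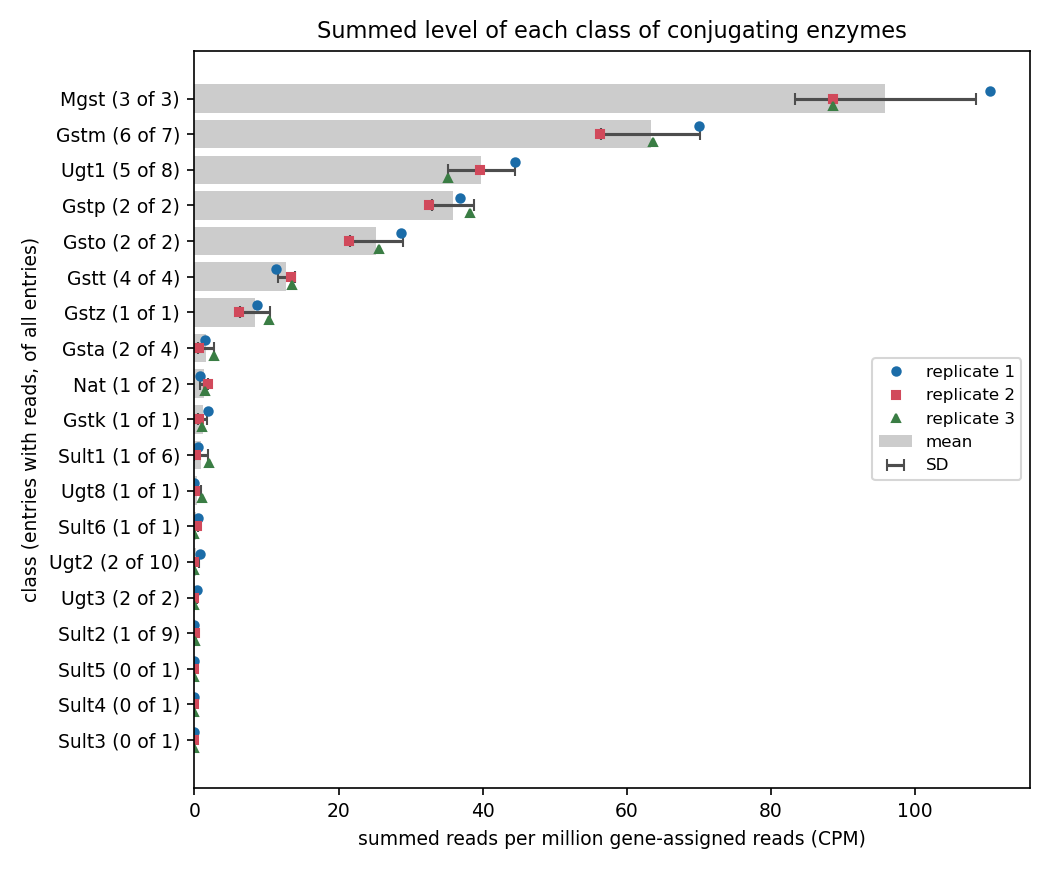
Summed level of each class in CPM. Bars are means with SD over 3 libraries, points are replicates, and the axis labels give how many entries of a class had reads. Mgst, Gstm, Ugt1, Gstp and Gsto hold nearly all of the signal, and 10 Ugt2 and 9 Sult2 entries sit near 0.

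Microsomal transferases stood among the most abundant members. Mgst2 lies on GRCm38 chromosome 3 (51660360 to 51682677) and encodes a membrane enzyme that can join glutathione to leukotriene A. It had 57.4, 45.9 and 49.9 CPM in replicates 1, 2 and 3, a mean of 51.1 ± 5.82 CPM (SD, n = 3), the highest of the members. Mgst1, on chromosome 6 (138140316 to 138156755), encodes a glutathione transferase and peroxidase of the endoplasmic reticulum and outer mitochondrial membrane. It had 46.4, 38.4 and 32.6 CPM, highest in replicate 1 and lowest in replicate 3. Mgst3, a further member of the same membrane family, was lower at 6.65, 4.32 and 6.13 CPM. The order Mgst2 over Mgst1 over Mgst3 held in 3 of 3 libraries, with a ratio of Mgst1 to Mgst2 reads of 0.766 ± 0.0983 (SD, n = 3).

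Among cytosolic GST genes the mu class was the highest and came mainly from Gstm1. This gene lies in a cluster on chromosome 3 (108012255 to 108017973) and encodes an enzyme that conjugates epoxides and other electrophiles. Gstm1 had 58.6, 35.8 and 47.4 CPM in replicates 1, 2 and 3 and gave 1260 of the 1680 reads of the 7 mu entries. Gstm5, in the same cluster but with other mu entries between them, had 8.29, 15.8 and 12.3 CPM. The library with the most Gstm1 thus had the least Gstm5. The ratio of Gstm1 to Gstm5 reads was 7.07, 2.27 and 3.87 in replicates 1, 2 and 3, a 3.12-fold range within 1 gene cluster. Gstm4 had 2.07, 2.10 and 1.86 CPM and Gstm2 0.763, 1.73 and 0.985 CPM. Gstm7 and Gstm6 had 18 and 3 reads in all, and Gstm3 had 0. The last 300 bases of a Gstm1 transcript share 50.4% of their 25-base words with Gstm3, so reads from there may not be separable between these copies.

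The pi class, when its copies were added, ranked below the mu class. Pi-class GST is a cytosolic conjugating enzyme that also binds the stress kinase JNK. Gstp1 had 18.4, 16.2 and 18.4 CPM and Gstp2 18.4, 16.4 and 19.8 CPM in replicates 1, 2 and 3. Both lie on chromosome 19, at 4035407 to 4037985 and 4040285 to 4046023. All 25-base words of the last 300 bases of an annotated transcript of each gene also occur in the other. Their reads differed by at most 7.18% in any library, so the pair is best read as 1 measurement of uncertain split. Its sum was 35.9 ± 2.94 CPM (SD, n = 3). If the same reads were counted for both entries, this sum is too high, which was not examined.

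The omega class had 2 members with reads in every library. Gsto1, which encodes a thiol transferase that can reduce dehydroascorbate, had 24.0, 17.5 and 20.6 CPM. Gsto2, next to it on chromosome 19, had 4.69, 3.95 and 5.03 CPM, and both were lowest in replicate 2. Gstz1, on chromosome 12, encodes maleylacetoacetate isomerase of tyrosine breakdown and had 8.62, 6.17 and 10.3 CPM. Gsto1 and Gsto2 overlap Cfap43 on the other strand, with 9, 25 and 11 reads in replicates 1, 2 and 3, and Gstz1 overlaps Pomt2, with 31, 14 and 7 reads. Gstm5 overlaps 4933431E20Rik on the other strand, with 17, 14 and 21 reads, and Ugt1a6b overlaps Dnajb3, with 38, 17 and 64 reads. These are overlaps of whole annotated spans, introns included, and whether exons or transcript ends overlap was not examined. The strand setting of the counting is not stated, so reads from a stretch that 2 genes share could be counted for either.

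The theta, alpha and kappa classes were lower. Gstt2 had 6.76, 9.99 and 7.22 CPM, Gstt3 2.94, 0.864 and 3.83 CPM and Gstt1 1.42, 2.47 and 2.52 CPM in replicates 1, 2 and 3, and Gstt4 had 2 reads. Of the alpha class, Gsta4 alone passed 1 CPM, at 1.42, 0.617 and 2.19 CPM. Gsta4 encodes an enzyme for lipid aldehydes. Gsta2 had 5 reads, all in replicate 3, and Gsta1 and Gsta3 had 0. Gstk1, which encodes a transferase of mitochondria and peroxisomes, had 1.85, 0.617 and 0.985 CPM.

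**Figure D2:**
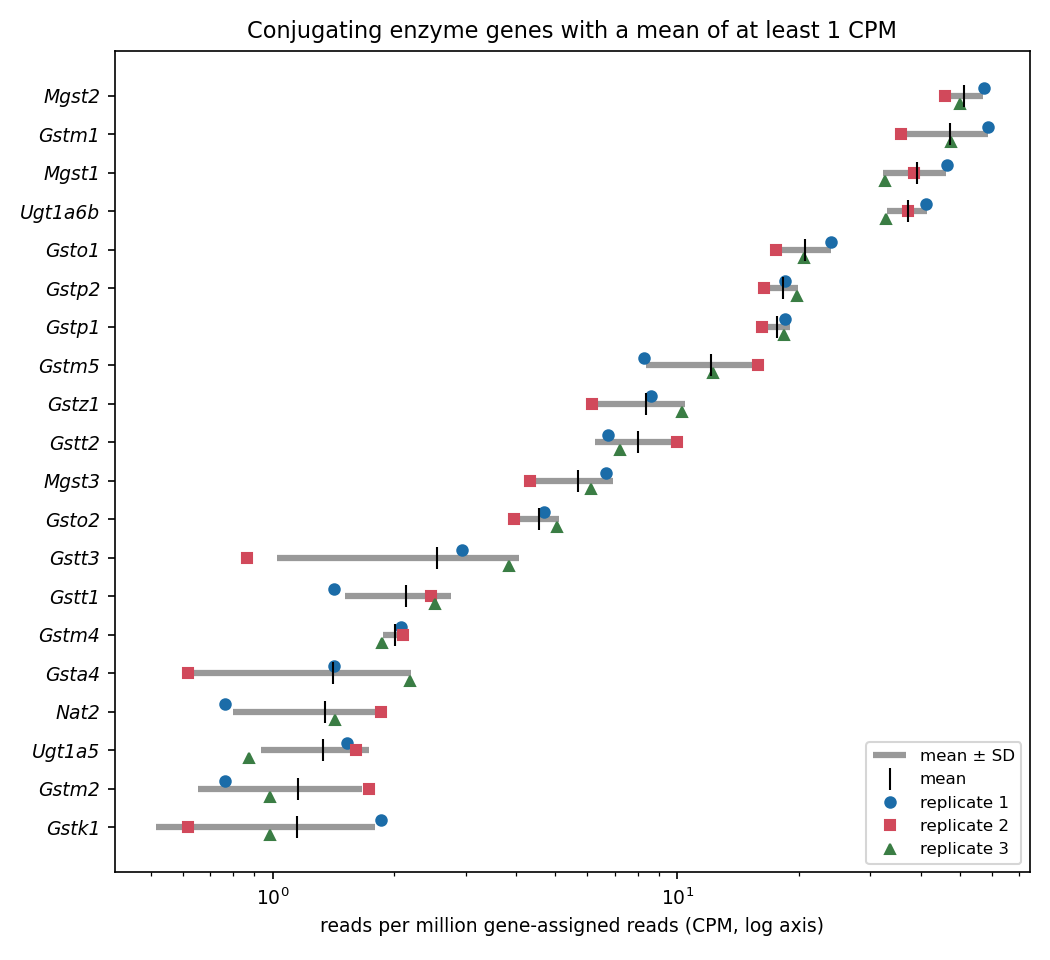
Levels of the 20 members with a mean of at least 1 CPM, in CPM on a log axis. Points are the 3 replicates, ticks the means and grey lines mean ± SD. Mgst2, Gstm1, Mgst1 and Ugt1a6b form the top group between 32.6 and 58.6 CPM, above Gsto1, whose replicates lie between 17.5 and 24.0 CPM. Gstp1 and Gstp2 are drawn as separate entries, though their split is uncertain.

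Ordered by mean, the 11 members of at least 5 CPM were Mgst2, Gstm1, Mgst1, Ugt1a6b, Gsto1, Gstp2, Gstp1, Gstm5, Gstz1, Gstt2 and Mgst3. Gstp1 and Gstp2 are ranked here as separate entries, though their split is uncertain. Their sum had 36.9, 32.6 and 38.2 CPM in replicates 1, 2 and 3, above Gsto1 and overlapping the range of Ugt1a6b. The neighbours of Gsto1, Gstp2 and Gstp1 in this order therefore depend on that split, and on whether the same reads were counted for both. Of the 10 neighbouring pairs, 3 had ranges over the libraries that did not overlap. These were Ugt1a6b over Gsto1 by 1.79-fold, Gstp1 over Gstm5 by 1.46-fold and Gstt2 over Mgst3 by 1.40-fold of the means. The ranges of the other 7 neighbouring pairs overlapped, so these neighbours did not differ beyond their spread. With TMM scaling 2 of the 10 pairs kept separate ranges. Gstt2, with a lowest value of 6.35 CPM, then overlapped Mgst3, with a highest value of 6.41 CPM. Among genes further apart in the order, Mgst2 lay above Ugt1a6b without overlap, with at least 45.9 CPM against at most 41.2 CPM.

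UGT signal came almost wholly from 1 entry of the Ugt1 locus. Ugt1a6b, named for an isoform that glucuronidates small phenols, had 41.2, 37.3 and 32.8 CPM in replicates 1, 2 and 3 and held 91.5% of UGT reads. The other Ugt1 entries with reads were Ugt1a5 with 35 reads in all, Ugt1a10 with 24, Ugt1a1, the bilirubin enzyme, with 11, and Ugt1a7c with 1. Ugt1a2, Ugt1a6a and Ugt1a9 had 0. In the annotation the 8 entries overlap on chromosome 1 (Ugt1a6b from 88103252 to 88219003). The last 300 bases of a transcript of each entry share all 25-base words with each of the other 7, because the isoforms differ in the first exon and share the rest. Reads from the poly(A) end therefore measure the locus, at 39.8 ± 4.63 CPM (SD, n = 3), and do not tell which first exon was used.

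The remaining UGT entries were at or near 0. Of 10 Ugt2 entries, 8 had 0 reads, and Ugt2a3 and Ugt2b5 had 4 and 3 reads, all in replicate 1. Ugt2 genes lie together on chromosome 5 and encode enzymes known from liver and nose for steroids and other lipids. Ugt3a1 and Ugt3a2 had 1 and 2 reads. Ugt8a, the enzyme of galactosylceramide synthesis in myelin, had 0, 1 and 9 reads in replicates 1, 2 and 3.

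Sulfotransferase genes gave 34 reads in all among 19 entries, and 16 entries had 0. Sult1a1, the phenol sulfotransferase, had 5, 2 and 18 reads in replicates 1, 2 and 3, which is 0.921 ± 0.921 CPM (SD, n = 3). Sult6b1 had 4, 3 and 0 reads and Sult2b1, the cholesterol sulfotransferase, 0, 1 and 1. The entries with 0 reads included Sult1e1, which inactivates oestrogens, and the 8 Sult2a entries for bile acids and hydroxysteroids. Nat2 had 0.763, 1.85 and 1.42 CPM and Nat1 had 0 reads. At this depth, entries with 0 reads were not detectable, and a 0 does not show that their reads could have been counted, since the authors' annotation is not given in the sources used here.

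Each gene with at least 30 reads was tested for spread between the libraries past counting noise (exact binomial test of each library against the others, Benjamini-Hochberg adjustment over all tested genes). Of 20 tested members, 7 passed an adjusted p of 0.05, which is 35% against 56.5% of all 11833 tested genes. Among the 9127 tested genes with no more reads than Mgst2, 49.5% passed. Few reads limit what this test can call, and many of the 20 members had between 30 and 121 reads. The median coefficient of variation (CV) was 23.0% over the tested members, 17.1% over all tested genes and 20.2% over those with no more reads than Mgst2. On the deposited log2 scale the SD over libraries had a median of 0.27 in the members and 0.21 in all tested genes.

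The members that passed did not share 1 order of the libraries. Gstm1 differed most clearly (exact binomial adjusted p = 4.90e-08, CV 24.1%), followed by Mgst1 (0.000259, CV 17.6%), Gstm5 (0.000583, CV 31.0%) and Gstt3 (0.000739, CV 59.8%). Mgst2, Gstz1 and Ugt1a6b passed narrowly (exact binomial adjusted p = 0.0105, 0.0392 and 0.0471). Of the 7, 4 were highest in replicate 1 and 4 were lowest in replicate 2, beside 5827 and 4446 of all 11833 tested genes. With TMM scaling, 2 of the 6 members that passed were highest in replicate 1 and 3 were lowest in replicate 2, beside 3925 and 4112 of the tested genes. Gstt3 was lowest in replicate 2, where it had 7 reads against 27 and 35. Gsto1, Gstp1, Gstp2, Gstt2 and Mgst3 did not pass (exact binomial adjusted p = 0.0554, 0.728, 0.505, 0.0668 and 0.184), nor did the members between 30 and 121 reads other than Gstt3. Among those, Gsta4, Gstk1, Gstm2 and Nat2 had the widest CVs, at 55.8%, 55.1%, 43.6% and 40.7%, on 30 to 38 reads each.

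**Figure D3:**
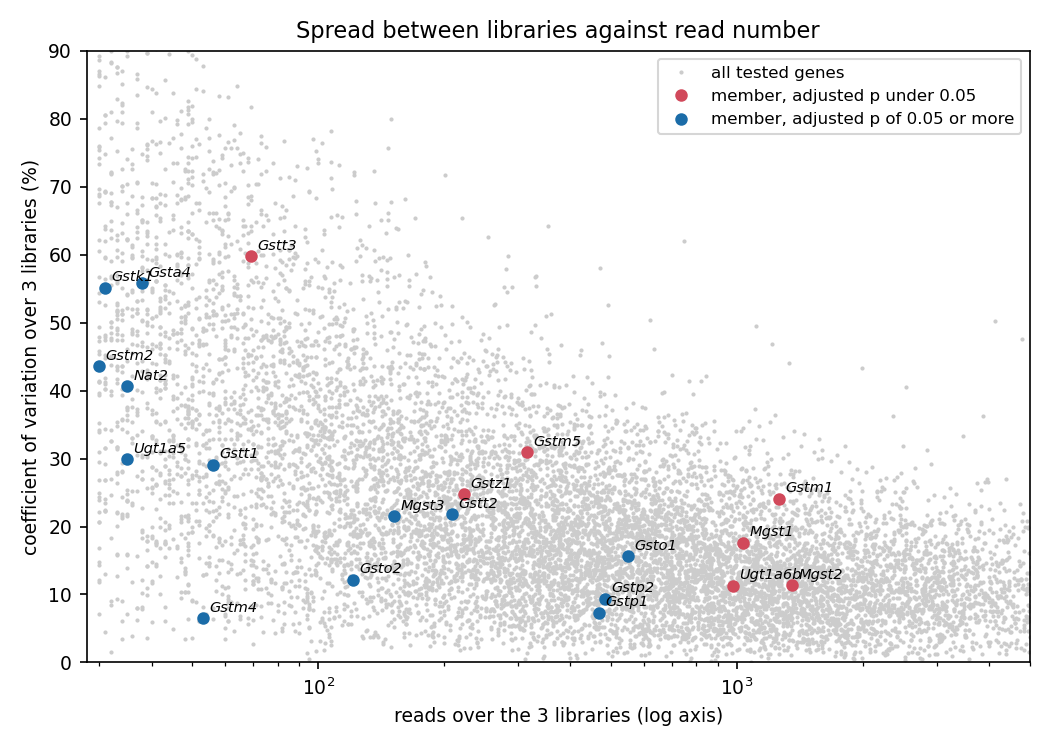
Coefficient of variation over 3 libraries (in percent) against the reads of a gene over all libraries on a log axis. Axes end at 90% and 5000 reads, and tested genes beyond them are not drawn. Grey points are all other tested genes, red points are members past the exact binomial test and blue points are members that did not pass. Gstm1 and Gstm5 lie towards the upper side of the grey cloud at their read numbers, while Mgst2 and Ugt1a6b lie within it.

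These calls depended in part on the scale. On library totals, replicate 1 exceeded the rest by a median of 0.13 (log2) over the tested genes, which became -0.0029 with trimmed-mean (TMM) scaling. With TMM scaling 6 of the 20 members passed, against 52% of all tested genes. Mgst2 and Ugt1a6b no longer passed (exact binomial adjusted p = 0.173 and 0.452), Gstt2 did (0.0474), and the other 5 remained. Gstm1 stayed highest in replicate 1 and lowest in replicate 2, and Gstm5 highest in replicate 2 and lowest in replicate 1. Without replicate 1, 3 of 15 tested members passed, against 34.8% of all tested genes, and Mgst1 and Gstm5 did not (exact binomial adjusted p = 0.109 and 0.120). Without replicate 2, 4 of 16 passed, against 39% of all tested genes, and Gstt3 and Gstz1 did not (exact binomial adjusted p = 0.442 and 0.380). Without replicate 3, 6 of 15 passed, against 38.5% of all tested genes.

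Cell type markers also differed between the libraries. Gstm5 had the order replicate 2, 3, 1 from high to low, as did 4 of 7 erythroid markers and 11.1% of all tested genes. The erythroid sum was lowest in replicate 1 but did not have that full order, since it was slightly higher in replicate 3 than in replicate 2. Gstm1 had the order replicate 1, 3, 2, as did 3 of 6 mast cell and basophil markers, 4 of 9 neutrophil markers and 23.6% of all tested genes. The summed mast cell and basophil markers had 183, 121 and 152 CPM in replicates 1, 2 and 3, and none of them was at 0. With TMM scaling 2 of 6 mast cell and basophil markers and 2 of 9 neutrophil markers shared the order of Gstm1, beside 17.1% of all tested genes. For Gstm5 it was 4 of 7 erythroid markers, beside 16.9%. The cell types named are those with the largest shares on library totals. There 0 of 9 neutrophil markers shared the order of Gstm5 and 0 of 7 erythroid markers that of Gstm1. Larger shares stood outside the cell types, in 3 of 5 genes listed for UDP-glucuronate supply for Gstm5 and 4 of 7 conjugate export pumps for Gstm1. The part of the cell type markers in the spread of both genes was not tested.

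Most genes listed for the supply of the groups to be transferred were expressed, including those for sulfate. The counts of genes that differed between libraries in each list stand beside 56.5% of all tested genes. For glutathione, 11 of 15 listed genes reached 1 CPM. The highest were Gclc and Gclm, the subunits of glutamate-cysteine ligase, at 111 ± 32.5 and 92.7 ± 5.50 CPM, and the glutathione reductase gene Gsr at 92.8 ± 25.9 CPM (SD, n = 3). Gclc had 87.5, 148 and 98.3 CPM in replicates 1, 2 and 3, and Gsr 123, 76.5 and 79.2 CPM, so Gclc was highest in replicate 2 and Gsr in replicate 1. Both differed between the libraries (exact binomial adjusted p = 8.69e-32 and 3.14e-26), as did 6 of 11 tested genes of the list. All 5 genes listed for UDP-glucuronate passed 1 CPM, and 4 of 5 differed. Ugdh, which makes UDP-glucuronate, had 21.5 ± 4.61, Ugp2 48.0 ± 6.81 and the transporter gene Slc35d1 8.82 ± 2.68 CPM. Slc35b1 was the highest of the list at 66.6 ± 5.55 CPM, but it is not established as a carrier of UDP-glucuronate. For the sulfate donor PAPS all 8 genes passed 1 CPM. Impad1, a Golgi phosphatase for its by-product, had 43.2 ± 1.31, the PAPS transporter gene Slc35b2 24.6 ± 2.50 and the synthase gene Papss1 17.3 ± 0.524 CPM, and 3 of 8 differed. The 8 listed genes, which include transporters and a phosphatase as well as synthases, summed to 108 ± 3.57 CPM. The synthase genes Papss1 and Papss2 had 17.3 ± 0.524 and 6.56 ± 2.99 CPM, beside 1.27 ± 0.714 CPM for the 19 SULT entries (SD, n = 3).

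Some protein relatives outside the symbol rule had levels above that of Mgst2. Alox5ap, which encodes the 5-lipoxygenase-activating protein of the MGST superfamily, had 401 ± 53.5 CPM (SD, n = 3), followed by Clic1 at 146 ± 27.8 and the elongation factor gene Eef1g at 120 ± 16.2 CPM. Ltc4s, the leukotriene C synthase of the same family as Mgst2, had 12 reads, and Hpgds, the sigma-class GST that makes prostaglandin D, had 11.4 ± 1.76 CPM. In this list 10 of 15 genes reached 1 CPM and 8 of 9 tested genes differed, beside 56.5% of all tested genes. Among other conjugation enzymes 6 of 10 genes reached 1 CPM and 5 of 6 tested differed. The tyrosylprotein sulfotransferase gene Tpst2 had 23.9 ± 3.90 CPM and the histamine methyltransferase gene Hnmt 8.21 ± 2.51 CPM (SD, n = 3). A further list held genes that hydrolyse glucuronides or sulfates, on sugar chains as well as on conjugates. Of these, Gusb had 24.4 ± 5.36 CPM, and Arsb and Sulf2, which act on sugar chains, 18.1 ± 4.11 and 14.4 ± 1.76 CPM. In this list 3 of 5 tested genes differed. Export pumps were led by Abcg2 at 47.3 ± 4.40, Abcc5 at 38.4 ± 4.74 and Abcc4 at 20.2 ± 3.99 CPM, with 4 of 7 tested genes differing, again beside 56.5% of all tested genes.

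Regulators of the electrophile response were present and those of the liver programme were not detected or nearly so. Nfe2l2, which encodes the activator Nrf2, had 103, 98.8 and 94.7 CPM in replicates 1, 2 and 3, and its inhibitor gene Keap1 78.3, 55.5 and 63.7 CPM. The partner and repressor genes Mafg, Bach1, Mafk and Maff had 113 ± 17.3, 68.7 ± 0.717, 35.5 ± 1.53 and 3.46 ± 0.812 CPM (SD, n = 3). The dioxin receptor gene Ahr had 8.51, 2.84 and 3.94 CPM, its partner gene Arnt 14.7 ± 1.58 CPM and the retinoid receptor gene Rxra 9.16, 12.3 and 8.65 CPM. Of the nuclear receptors and liver factors, Nr1i2 and Foxa2 had 0 reads, Nr1i3 2, Ppara 1 and Hnf4a 6 reads in all. Of 9 tested regulators, 3 differed between the libraries, beside 56.5% of all tested genes. These were Keap1, Mafg and Ahr (exact binomial adjusted p = 9.73e-07, 1.02e-09 and 2.56e-06).

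The promoter windows of the members, a feature that the symbol rule did not use, differed in CpG content with level. RefSeq windows of GRCm38.p6 run from 250 bases before to 50 after a gene's start, and the first listed window was matched for 56 of the 66 members. The ratio of observed to expected CpG had a median of 0.583 in 16 members with at least 1 CPM and of 0.165 in 30 members with fewer than 3 reads, beside 0.389 over all 27025 first windows. A ratio of at least 0.6 was found in 6 of the 16, in 0 of the 30, and in 36.5% of all windows. Over all file symbols with a window the median was 0.577, and 48.4% had a ratio of at least 0.6. The same direction with level was seen among these symbols. Their median ratio was 0.770 with at least 1 CPM and 0.227 with fewer than 3 reads, and 71.9% and 16.0% of them had a ratio of at least 0.6. Windows were matched for 79.8% and 77.1% of these symbols, under the 80% required here, so a check of the members against genes of like level is void. Exceptions were Mgst2, the highest member, with 0 CpG, and Ugt8a, with 10 reads and the highest ratio of all members, 0.974. The Mgst2 window starts from a RefSeq start 819 bases away from the gene start in GENCODE, and 11 members had such a distance of over 100 bases. Families also differ in level, so CpG content and family cannot be told apart here. These counts describe the windows and were not tested.

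The windows of 3 GST genes with reads and of 2 genes with 0 reads were picked because they carry this contrast, so they add no support to it. Of the 3, only Gstp1 had a ratio of at least 0.6, at 0.682, beside 0.568 for Gstm1 and 0.471 for Gstp2. All are shown 5′ to 3′ in the gene's direction with each CG in capitals. Gstm1 (minus strand, chr3:108017924-108018223) has 14 CG, Gstp1 (minus strand, chr19:4037863-4038162) 20 and Gstp2 (minus strand, chr19:4042172-4042471) 12. Sult1e1 (minus strand, chr5:87591562-87591861) and Ugt2b1 (minus strand, chr5:86926454-86926753) have 1 each.
Gstm1: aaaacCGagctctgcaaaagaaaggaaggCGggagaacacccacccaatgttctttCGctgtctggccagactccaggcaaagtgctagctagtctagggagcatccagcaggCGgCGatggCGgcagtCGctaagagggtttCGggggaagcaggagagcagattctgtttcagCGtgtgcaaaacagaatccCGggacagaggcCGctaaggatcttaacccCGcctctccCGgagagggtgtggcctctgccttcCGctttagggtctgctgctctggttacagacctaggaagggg
Gstp1: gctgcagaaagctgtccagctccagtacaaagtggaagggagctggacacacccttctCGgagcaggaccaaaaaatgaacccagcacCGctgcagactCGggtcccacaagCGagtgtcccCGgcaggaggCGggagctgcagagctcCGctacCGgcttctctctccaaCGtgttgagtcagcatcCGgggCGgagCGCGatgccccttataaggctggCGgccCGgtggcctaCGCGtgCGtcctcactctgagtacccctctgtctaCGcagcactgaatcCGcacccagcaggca
Gstp2: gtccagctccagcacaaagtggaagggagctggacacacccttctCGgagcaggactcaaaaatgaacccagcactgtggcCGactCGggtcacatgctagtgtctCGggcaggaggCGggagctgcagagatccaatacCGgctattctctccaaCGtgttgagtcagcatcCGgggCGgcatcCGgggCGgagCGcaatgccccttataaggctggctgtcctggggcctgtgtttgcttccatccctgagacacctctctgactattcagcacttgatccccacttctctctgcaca
Sult1e1: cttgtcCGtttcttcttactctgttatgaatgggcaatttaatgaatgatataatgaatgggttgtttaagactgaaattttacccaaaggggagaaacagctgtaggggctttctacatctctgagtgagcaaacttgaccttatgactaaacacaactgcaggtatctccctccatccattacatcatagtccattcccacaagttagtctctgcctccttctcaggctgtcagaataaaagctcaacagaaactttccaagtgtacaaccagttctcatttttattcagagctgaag
Ugt2b1: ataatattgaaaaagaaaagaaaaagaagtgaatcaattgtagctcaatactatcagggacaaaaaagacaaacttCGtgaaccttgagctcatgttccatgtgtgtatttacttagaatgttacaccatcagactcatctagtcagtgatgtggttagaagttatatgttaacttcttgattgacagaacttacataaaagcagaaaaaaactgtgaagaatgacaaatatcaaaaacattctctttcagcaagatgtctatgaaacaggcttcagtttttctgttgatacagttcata
The Gstp1 and Gstp2 windows matched at 246 of 281 aligned bases, against 187 of 254 for Gstp1 and Gstm1 by the same alignment. The Gstp2 window lies inside the gene as GENCODE annotates it, 3802 bases from the GENCODE start.

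**Figure D4:**
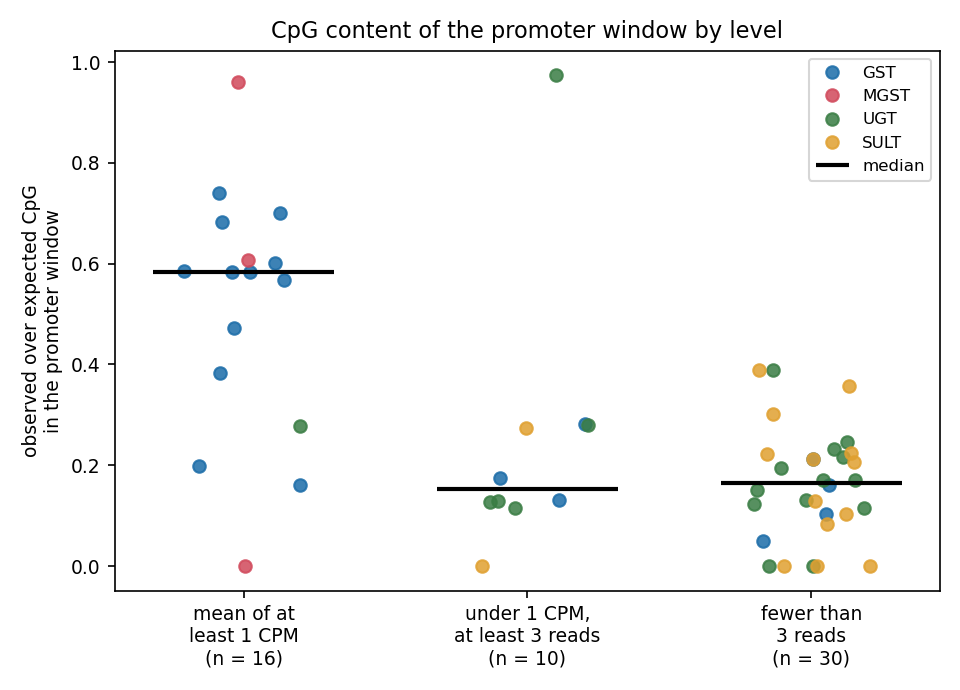
Ratio of observed to expected CpG in the promoter window of members, in 3 groups by level; points are genes, colours are families and black lines are medians. The 16 members with at least 1 CPM have a median of 0.583 and those with fewer than 3 reads one of 0.165, with Mgst2 at 0 and Ugt8a at 0.974 as the points farthest from their groups.

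The motifs of the antioxidant and dioxin responses were found in few member windows. The antioxidant response element core TGACNNNGC, searched on both strands, was found in 2 of the 16 windows of members with at least 1 CPM, those of Mgst1 and Gstm5, and in 1 of the 30 with fewer than 3 reads, that of Gsta3, against 12.5% of all windows. The dioxin response element TNGCGTG, searched likewise, was found in 1 of the 16, that of Ugt1a5, in 1 of the 30, that of Sult1d1, and in 1 of the 10 members between these groups, that of Gsta2. It stood in 5.12% of all windows. A match of letters describes the window and shows no binding.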

How the data were processed

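RNA was measured in 3 bone marrow libraries, made with Trizol and a Lexogen QuantSeq kit from 500 ng of total RNA, per the labels' protocols. Per the submitters' processing notes, Bowtie2 and bedtools were used with mm10. Versions, annotation, strand setting and normalization rule were not given in the sources used here. The authors deposited log2 values per gene symbol. Judged from the values, 1 was added before the log and reads had been divided by a library size that the authors adjusted. In every library 100% of the unlogged values were whole multiples of 1 step (tolerance 1e-06), so whole reads were recovered and the tests ran on them. CPM are recovered reads over each library's total of recovered reads, with Rn45s (18.6% to 20.3%) and globin entries (10.1% to 15.1%) left in.

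Genes with at least 30 reads were tested with exact two-sided binomial tests of each library against the others, the smallest p multiplied by 3, then Benjamini-Hochberg adjustment over all tested genes (Python 3.11.15, scipy 1.17.1). The test was also tested on simulated data with known changes. Positions, gene overlaps and transcript ends come from GENCODE M21 of GRCm38, the assembly of mm10, and promoter windows from RefSeq on GRCm38.p6. Promoter entries were lacking for Ugt1a6b, Gstt2, Gsta4, Nat1, Nat2, Ugt3a2, Sult2a1, Sult2a2, Sult2a7 and Sult4a1. Protein sequences were not used here.

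The members, lists and tests were chosen with earlier results of these data known. Values per library are given for members with a mean of at least 5 CPM, the highest member of each class, the 5 tested members with the largest CV, and the 3 highest genes of each list with all regulators; other values named were chosen after they were seen. Some genes that this rule names are not reported here.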

Additional observations from a re-analysis of the deposited data

How the results depend on the processing

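Scaling by TMM, by median of ratios or by the authors' own factors left the 6 summed levels within 1 SD of the values on library totals. Without Rn45s and globin entries in the total, the sums moved to 425 CPM for all members, 219.7 for GST, 142 for MGST, 60.0 for UGT and 2.03 for NAT entries. The number of members past the exact binomial test was 3 to 6 when 1 library was left out. That of all genes was 3866 to 4392, or 34.8% to 39% of those tested. Fewer libraries and reads enter each of these tests. With a minimum of 10 reads 9 of 25 tested members passed, adding Sult1a1 and Ugt8a, against 54% of all tested genes. With the chi-square test 9 of 20 passed, adding Gsto1 and Gsta4, against 58.9%. With no minimum 9 of 35 members passed, against 45.8% of all genes with reads. This added Sult1a1, Ugt8a and Gsta2 and lost Ugt1a6b (exact binomial adjusted p = 0.0562, 0.0471 with the minimum of 30 reads, and 0.0562 to 0.452 over the settings that lost it). A mean of at least 5 CPM in place of 1 CPM was reached by 11 members. Neighbouring members without overlapping ranges numbered 2 to 6 when 1 library was left out, in place of 3. They numbered 2 with TMM, with median-of-ratios and with the authors' scaling. Leaving out Gstp2, as if both entries had counted the same reads (a setting added after seeing the data), gave 269 CPM for all members. With members cut at 5 CPM the median CpG ratio was 0.601. No paired analysis was possible because the labels give 1 group. Depth limits statements on the 31 entries with 0 reads and on members near 30 reads.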

Other observations

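Some low members had most of their reads in 1 library. Of the 25 reads of Sult1a1, 18 were in replicate 3, as were 9 of the 10 reads of Ugt8a and all 5 of Gsta2. Sult1a1 and Ugt8a passed the exact binomial test only where the read minimum was lowered to 10 or removed. The AP-1 motif TGANTCA, whose search was added after the promoter windows were read and whose reverse complement is itself, stood in 4 of the 16 windows of members with at least 1 CPM, those of Mgst2, Gstp1, Gstp2 and Gstm5. It stood in 7 of the 30 windows of members with fewer than 3 reads, in 0 of the 10 between these groups and in 7.93% of all windows. In Gstp1 and Gstp2 the match was TGAGTCA.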
